A study of Mus musculus with 36 samples.

Results

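The 10 genes described here encode amino acid carriers of the cell surface and the enzyme that makes glutamine, read in macrophages with and without a deletion of the gene of the clock factor BMAL1, each treated or not with a small molecule that binds this factor. They are Slc7a1, Slc7a2, Slc7a5, Slc7a6, Slc7a7, Slc7a8, Slc3a2, Slc1a5, Slc38a2 and Glul. They were chosen by gene name from the 54532 genes of the count table, and each name matched 1 row. Glul was the reason for the choice: it was the 1 gene called higher with compound under endotoxin in Bmal1-deleted cells. The values of that contrast are therefore given below as a description, with no test.

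The study grew macrophages from the bone marrow of the tibiae and femora of C57BL/6 mice with MCSF, a macrophage growth factor, for 7 days. Knockout (KO) cells came from LysM-Cre;Bmal1 flox/flox mice and wild-type (WT) cells from Bmal1 flox/flox mice without Cre, so that all cells carried floxed alleles. The study's methods describe the mice as females of 13 to 17 weeks. The LysM promoter drives Cre in myeloid cells, so deletion is limited to that lineage, and each culture is a population and not a clone. Cells of each genotype were treated for 6 h with vehicle (DMSO), with 100 µM of Core Circadian Modulator (CCM), a compound that binds the PASB domain of BMAL1, with 100 nM lipopolysaccharide (LPS), a bacterial cell wall component that sets off inflammation, or with LPS and CCM together. There were 3 replicates of WT and 6 of KO under each of the 4 treatments, 36 libraries in all. The study gives these numbers beside the female mice used, and the labels do not tie a library to an animal, so p-values measure the spread between these libraries.

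Amino acids enter cells through carriers that differ in what they accept. Slc7a1 and Slc7a2 carry arginine, lysine and ornithine on their own. Slc7a5, Slc7a6, Slc7a7 and Slc7a8 are light chains that reach the membrane joined to the heavy chain encoded by Slc3a2. Slc7a5 and Slc7a8 exchange large neutral amino acids, and Slc7a6 and Slc7a7 exchange cationic for neutral ones. Slc1a5 and Slc38a2 take up glutamine and other neutral amino acids. Glul, glutamine synthetase, joins ammonia to glutamate to make glutamine. In macrophages arginine feeds both nitric oxide synthase and arginase, and glutamine feeds the tricarboxylic acid cycle.

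Glul (ENSMUSG00000026473) lies on chromosome 1 from 153899944 to 153909723 of the mouse build GRCm38, on the plus strand. The 250 bases before the start of its RefSeq transcript (GRCm38.p6, chr1:153899679-153899928, plus strand) are shown because Glul is the gene on which the results with CCM turn. Capitals mark the matches to CCAAT, the letters of the CCAAT box, which was searched on both strands.

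Glul promoter: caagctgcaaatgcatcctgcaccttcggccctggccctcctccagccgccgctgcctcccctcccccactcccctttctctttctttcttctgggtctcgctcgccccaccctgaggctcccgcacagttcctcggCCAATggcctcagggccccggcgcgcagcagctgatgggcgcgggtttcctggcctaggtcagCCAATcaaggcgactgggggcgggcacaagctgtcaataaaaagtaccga

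The matches start at positions -113 and -50 from the transcript's start, and 33.8% of 32851 promoter windows of the same length hold at least 1 such match. The window held no match to CACGTG, the E-box bound by BMAL1 with its partner CLOCK, which 6.02% of windows hold. It also held none to TATAAA (12.4% of windows), to the ATF4 composite element searched as TGATGNAAN (3.44%) or to a kappaB site (7.25%). These counts describe the letters of this window and of no other part of the gene. RefSeq promoter windows were at hand for 7 of the 10 members, all but Slc7a2, Slc7a5 and Slc1a5.

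Each library held 13469262 to 28288923 read pairs on genes. Levels are given as CPM, read pairs per gene brought to 1 library size with TMM factors, and between genes only as CPM per kb of gene length. The 7 macrophage markers, Adgre1, Csf1r, Cd68, Itgam, Lyz2, Mertk and Fcgr1, were detected in all libraries. Their summed level was 15814 to 19356 CPM in WT and 11179 to 19983 in KO, the highest KO sum being LPS+CCM replicate 2. Lyz2 was the largest single part of the sum, with 5862 to 15185 CPM over WT and KO replicates 1 to 5 together and 7882 to 9461 in KO replicate 6. Its part in the lower KO medians was not tested, so these do not show less macrophage RNA. The 7 neutrophil markers summed to 380.0 to 624 CPM in WT, 387 to 999 in KO replicates 1 to 5 and 1030 to 1106 in KO replicate 6. The 5 fibroblast markers summed to 327 to 1382 CPM in WT and 302 to 1660 in KO, and B cell, T cell, erythroid and dendritic cell markers each to at most 33.0. Counts of Arntl, the gene of BMAL1, were 7.52, 8.65 and 9.98 CPM in WT vehicle and 2.87 to 7.98 CPM in KO vehicle. Without KO replicate 6 the KO vehicle libraries had 7.47 ± 0.62 CPM (SD, n = 5). These counts cover the whole gene and so do not check the deletion of the floxed part.

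KO replicate 6 stood apart from the other libraries in all 4 treatments. Relative to the median of the other libraries of its group, genes of over 6000 bases were lower there than genes under 2000 bases by 1.64 to 2.06 on the log2 scale. KO LPS+CCM replicates 2 and 5 leaned the same way, with differences of -0.50 and -1.04, and the remaining libraries lay between -0.32 and 0.66. The members did not follow gene length strictly. Low in KO replicate 6 on the log2 scale over the 4 treatments were Slc38a2 (8838 bases) by 1.20 to 1.53, Slc7a2 (9135 bases) by 1.07 to 1.35, Slc7a1 (11530 bases) by 0.85 to 1.31 and Slc7a8 (5005 bases) by 0.86 to 1.33. Slc7a6 (4570 bases) was low by 0.60 to 0.99, Slc7a5 (3708 bases) by 0.10 to 0.75, Slc7a7, the shortest with 3315 bases, by 0.34 to 0.62, and Glul (3323 bases) by 0.10 to 0.33. Slc3a2 (3529 bases) lay within -0.11 to 0.12 and Slc1a5 (4173 bases) within 0.02 to 0.34 of the other replicates. The part that this trend plays in the results was not tested, and the KO fold changes below are given with all libraries and, where the text says so, without replicate 6.

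**Figure D1:**
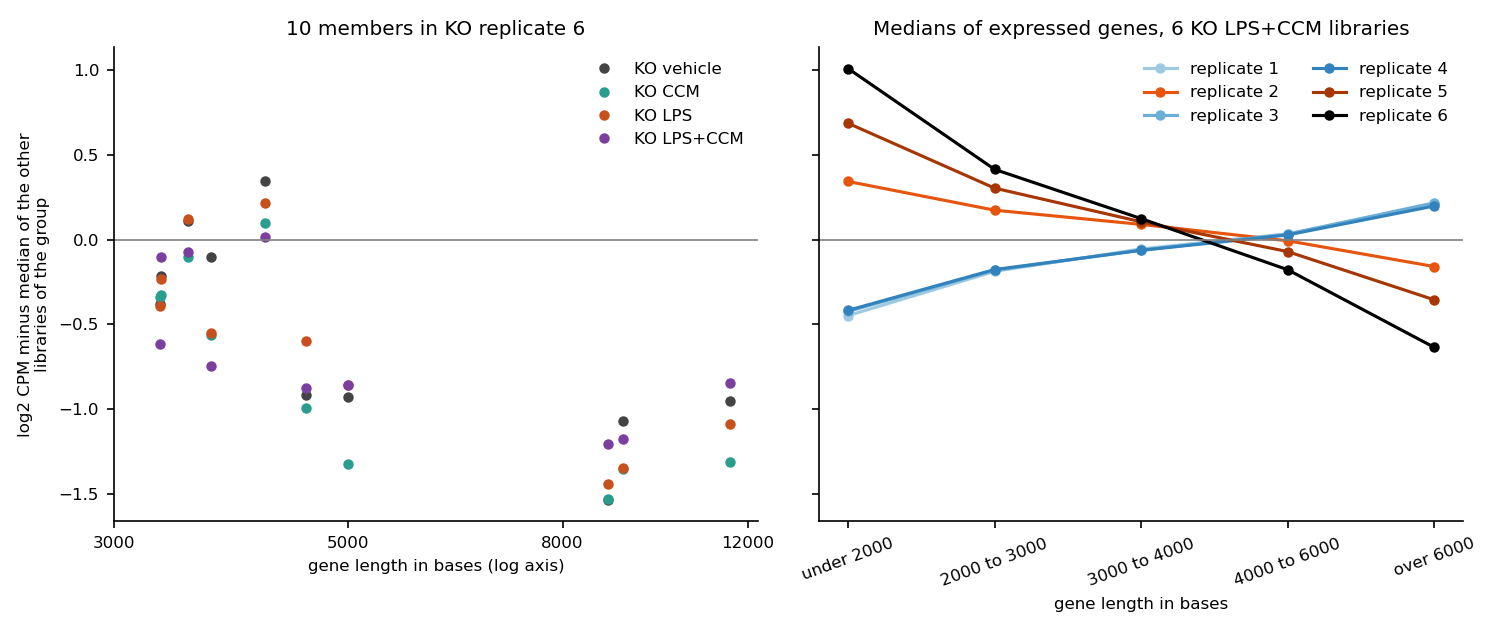
Left, log2 CPM of the 10 members in KO replicate 6 minus the median of the other libraries of the group, against gene length in bases on a log axis, with 1 point for each treatment. Right, the median of the same kind of difference over all expressed genes in 5 bins of gene length for the 6 KO LPS+CCM libraries. The long members Slc38a2 and Slc7a2 lie 1.07 to 1.53 below the other libraries, and the lines of replicates 2, 5 and 6 fall with length while those of the other 3 rise.

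In unstimulated WT macrophages the heavy chain led the members. Slc3a2 had 125 CPM per kb, followed by Glul with 80.3 and Slc7a8 with 61.1 (means, n = 3). Slc1a5 (14.3) and Slc38a2 (13.9) came next and did not differ beyond their spread, then Slc7a7 (10.3), Slc7a6 (5.76), Slc7a5 (5.42), Slc7a2 (4.51) and Slc7a1 (2.75). With LPS the order of levels was another one. Slc3a2 still led with 354 CPM per kb, Slc7a2 followed with 254 and Slc7a8 with 119, while Glul stood at 19.4.

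**Figure D2:**
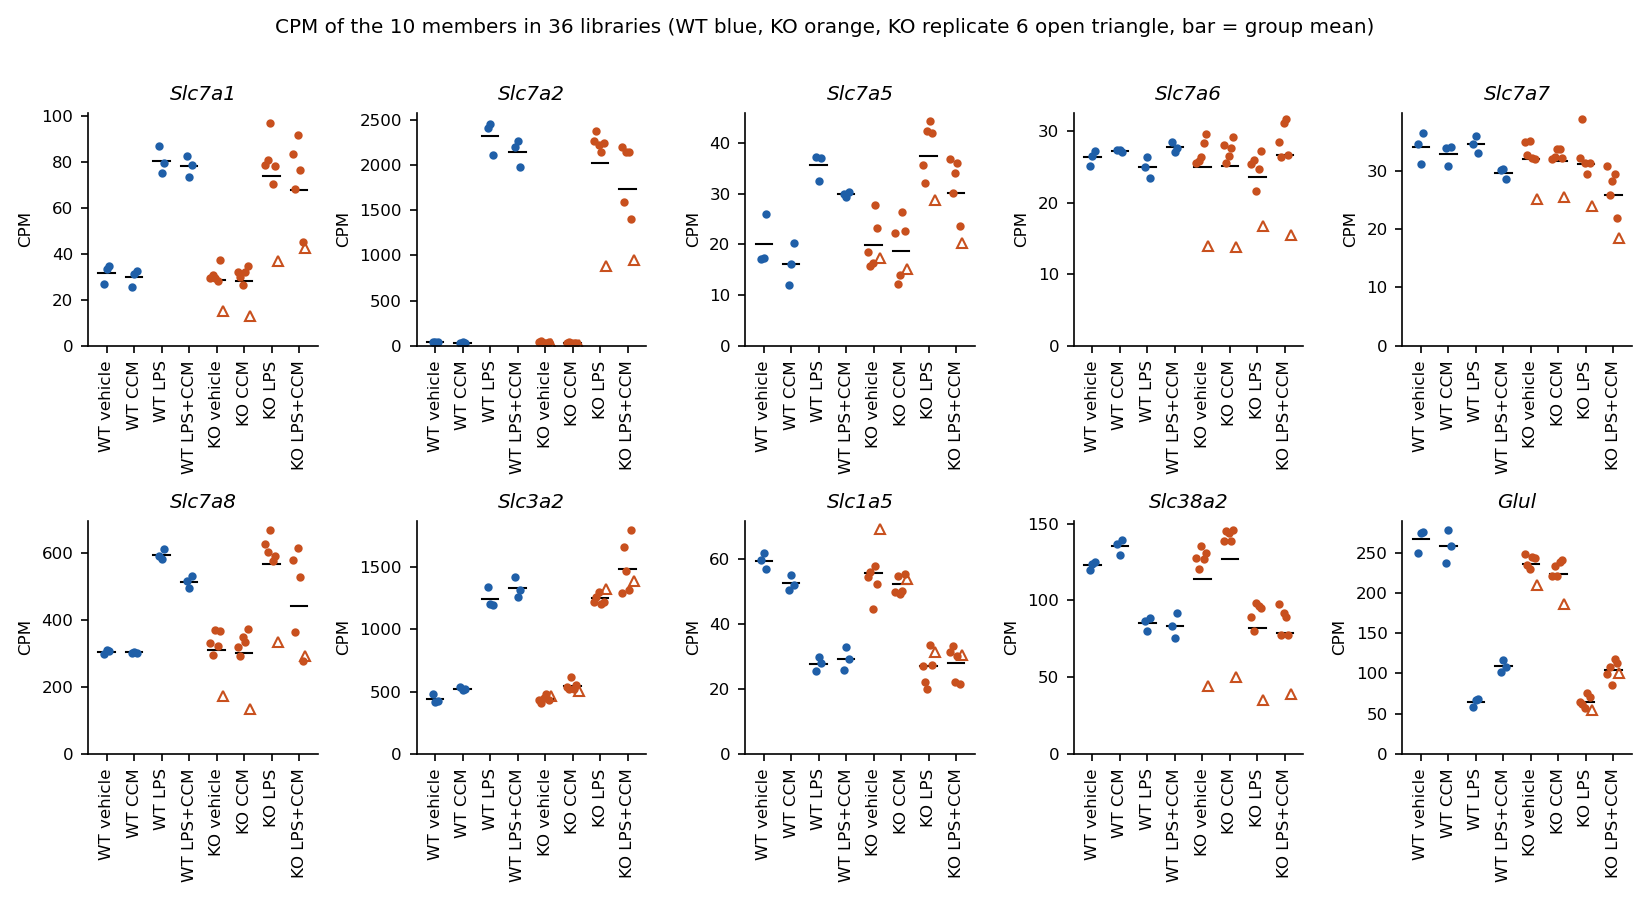
CPM of the 10 members in each of the 36 libraries, 1 panel for each gene with axes from 0, with WT in blue, KO in orange, KO replicate 6 as an open triangle and the mean of each group as a bar. Slc7a2 lies between 27.9 and 53.3 CPM in vehicle and between 2114 and 2453 CPM with LPS outside KO replicate 6, and Glul is low with LPS and higher again with LPS+CCM in both genotypes.

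LPS moved most of the members in WT cells, up for the cationic carriers, Slc7a5, Slc7a8 and the heavy chain and down for the glutamine carriers and Glul. Of the 10 members, all tested, 8 were called between WT LPS and WT vehicle at an edgeR adjusted p of at most 0.05, which is how "called" is used throughout. Among all 14501 genes tested, 63% were called, so a call alone says little about the members. Higher calls numbered 5 members against 30.6% of all genes, and lower calls 3 members against 32.4%. The members' median log2 fold change was 0.45 and that of all genes -0.05, and the median size without sign was 1.03 for the members and 0.54 for all genes.

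Slc7a2, the arginine carrier, had the largest change of the 10. In WT vehicle it had 39.6, 45.9 and 38.0 CPM, and with LPS 2405, 2453 and 2114 CPM. The groups lay far apart and no library fell between them. On the log2 scale the change was 5.85 with a standard error of 0.107 (edgeR adjusted p = 5.02e-11), which is 57.7-fold. Slc7a1, the carrier of the same amino acids that most cells express, had 27.0, 33.5 and 34.6 CPM in vehicle and 86.8, 75.1 and 79.5 with LPS. All LPS libraries lay above all vehicle libraries, by 1.37 on the log2 scale (standard error 0.106, adjusted p = 1.63e-06). Per kb, Slc7a2 made up 62.1% ± 3.56 of the summed level of this pair in WT vehicle and 97.3% ± 0.277 with LPS (SD, n = 3). Part of the Slc7a2 count is uncertain, since its exons overlap those of Gm26584 on the other strand.

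The heavy chain rose with these carriers, and its partners moved unevenly. Slc3a2 had 479, 417 and 427 CPM in WT vehicle and 1344, 1207 and 1196 with LPS, a log2 fold change of 1.53 (standard error 0.0707, adjusted p = 3.14e-08). Slc7a8 had 300.1, 309.8 and 307 CPM in vehicle and 592, 583 and 612 with LPS, a log2 fold change of 0.99 (standard error 0.0546, adjusted p = 1.26e-07). Slc7a5 had 17.04, 17.3 and 25.9 CPM in vehicle and 37.3, 32.5 and 37.0 with LPS, a log2 fold change of 0.84 (standard error 0.153, adjusted p = 0.000809). For these 3 genes the groups did not overlap. The light chains Slc7a6 and Slc7a7 were not called: Slc7a6 had 25.2 to 27.2 CPM in vehicle and 23.4 to 26.4 with LPS (log2 fold change -0.05, standard error 0.077, adjusted p = 0.591). Slc7a7 had 31.2 to 36.4 CPM in vehicle and 33.1 to 36.01 with LPS (0.05, standard error 0.0749, adjusted p = 0.593). With libraries scaled by their total counts alone, which moves the median of all genes by -0.41, both were called lower (Slc7a6 -0.46, Slc7a7 -0.36), and relative to that shift their changes were small. Upper-quartile scaling, with a shift of -0.18, called Slc7a6 lower (-0.23) as well. Exons of Slc7a7 overlap those of Oxa1l on the other strand.

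Set against the 4 light chains among the members, the heavy chain gained. Its level per kb was 1.52 ± 0.147 times the summed level of these 4 in WT vehicle and 2.45 ± 0.175 times with LPS (SD, n = 3). Slc7a8 made up 74.0% of these 4 light chains in WT vehicle and 82.4% with LPS. These are ratios of transcripts and not of proteins. The sum leaves out Slc7a11, another partner of Slc3a2 that is not a member. It had 28.8 CPM in WT vehicle and 1419 with LPS. The gain therefore holds for the 4 summed light chains alone, and a ratio with Slc7a11 included was not computed.

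The glutamine carriers and the glutamine-making enzyme were lower with LPS. Glul had 249.6, 274 and 276 CPM in WT vehicle and 57.8, 67.5 and 68.2 with LPS, 24.2% of the vehicle mean. No LPS library came near the vehicle libraries, and the log2 fold change was -2.02 (standard error 0.0818, adjusted p = 1.15e-08). Slc1a5 had 59.7, 62.0 and 56.9 CPM in vehicle and 25.4, 29.8 and 28.1 with LPS, a log2 fold change of -1.07 (standard error 0.0751, adjusted p = 8.09e-07). Slc38a2, a carrier known to be raised when amino acids run short, had 119.7, 124 and 125 CPM in vehicle and 86.5, 80.2 and 88.6 with LPS, a log2 fold change of -0.50 (standard error 0.0624, adjusted p = 5.78e-05). The groups did not overlap for any of these genes. The Slc38a2 call was lost when all 36 libraries shared 1 estimate of the spread (adjusted p = 0.265). In these bulk cultures fewer cells of a type and less RNA per cell cannot be told apart. Exons of Glul overlap those of Teddm2 on the other strand and of Mir8114 on the same strand, so a part of its count is uncertain.

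The same comparison in KO macrophages gave changes of much the same size for each member, with a wider spread. There 7 of the 10 members were called, where 47.1% of 13648 genes were, 5 of them higher (22.4% of all genes) and 2 lower (24.7%). The 2 lower ones were Slc1a5 and Glul. Glul enters this count and later counts of KO calls with LPS only as a description, for the reason given below. Slc7a2 had 17.7 to 53.3 CPM in KO vehicle (median 36.6, n = 6) and 883 to 2375 with LPS (median 2235), a log2 fold change of 5.82 (standard error 0.312, adjusted p = 5.73e-09). The lowest LPS value belonged to replicate 6. Without it the KO LPS libraries had 2250.2 ± 84.5 CPM (SD, n = 5). Glul had 210.4 to 249 CPM in KO vehicle (median 239) and 54.7 to 75.1 with LPS (median 63.1), with no overlap, and its log2 fold change was -1.88 (standard error 0.0908). The KO LPS libraries belong to the contrast by which Glul was chosen, so this value is a description and no p is given. Slc3a2 changed by 1.51, Slc7a1 by 1.37, Slc7a5 by 0.93, Slc7a8 by 0.87 and Slc1a5 by -1.04 (standard errors 0.0902 to 0.214, adjusted p of at most 0.00129). Without KO replicate 6 the values were 5.84 for Slc7a2, 1.496 for Slc3a2, 1.38 for Slc7a1, 0.95 for Slc7a5, 0.86 for Slc7a8, -1.03 for Slc1a5 and -1.87 for Glul, and the first 6 of these genes kept their calls.

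Slc38a2 was the member for which KO replicate 6 decided the call. Its levels in KO vehicle were 121 to 136 CPM in replicates 1 to 5 and 43.9 in replicate 6, and with LPS 80.0 to 98.3 and 34.9. Each replicate had less with LPS than with vehicle. The log2 fold change was -0.47 with a standard error of 0.266 (adjusted p = 0.169), and without replicate 6 it was -0.49 with a standard error of 0.0653 (adjusted p = 1.67e-05). With KO vehicle replicate 6 alone left out it was -0.63 (adjusted p = 0.0151). KO libraries of 1 number deviated together here, and a block for the replicate also called Slc38a2 (-0.46, standard error 0.0531). The block called 8 members and 71.6% of all genes. Under total counts alone, which moves the median of all genes by -0.38 in KO, Slc7a8 lost its call (0.48, adjusted p = 0.101) and Slc7a7 (-0.43) and Slc38a2 (-0.86) gained one.

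**Figure D3:**
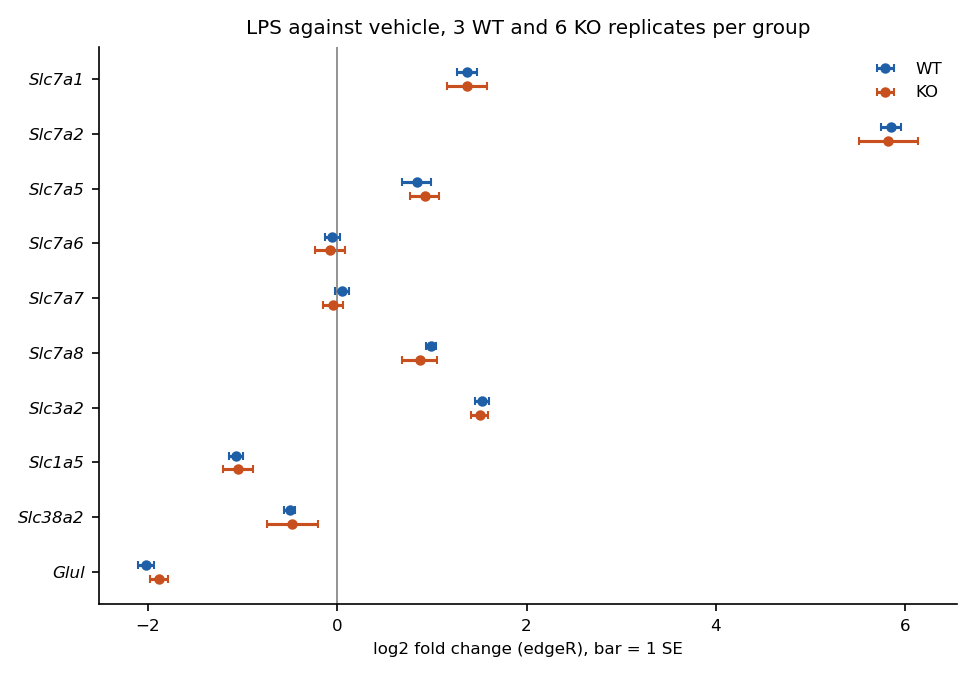
Log2 fold change of each member with LPS against vehicle, in WT (n = 3 each) and KO (n = 6 each), with bars of 1 standard error from edgeR. Both genotypes lie close together for every member, from 5.85 and 5.82 for Slc7a2 to -2.02 and -1.88 for Glul.

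Deletion of Bmal1 by itself gave no called member. Between KO and WT under vehicle 0% of 14385 genes were called by edgeR, 118 genes but none of the members had an unadjusted p under 0.05, and DESeq2 called 1 gene. Under LPS 0% of 13794 genes were called, with 105 genes and again no member at an unadjusted p under 0.05, and DESeq2 called 1 gene. For Glul the difference KO minus WT was -0.14 on the log2 scale under vehicle (95% interval -0.35 to 0.08) and 0.01 under LPS, the latter a description since KO LPS libraries took part in its choice. For Slc7a2 it was -0.17 (-0.80 to 0.45) and -0.18 (-0.78 to 0.41), and for Slc38a2 -0.07 (-0.73 to 0.59) and -0.03 (-0.65 to 0.59). Without KO replicate 6 the differences were -0.05 (standard error 0.166) and -0.04 (0.0575) for Slc7a2, and 0.09 (0.0584) and 0.12 (0.0752) for Slc38a2, none of them called. The difference between the genotypes in the LPS response was tested as well: 0% of 15093 genes were called, 112 had an unadjusted p under 0.05 and none of these was a member. For Glul this difference was 0.16, again as a description.

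CCM alone called none of the members in resting cells. In WT, 0.057% of 14024 genes were called between CCM and vehicle. An unadjusted p under 0.05 was reached by 1404 genes, 3 members among them. Slc3a2 had 479, 417 and 427 CPM in vehicle and 538, 516 and 517 with CCM. The groups did not overlap and all 3 pairs were higher with CCM, by 0.26 on the log2 scale (standard error 0.0566, adjusted p = 0.147). Slc1a5 differed by -0.17 (adjusted p = 0.437) and Slc38a2 by 0.15 (adjusted p = 0.456), and their groups did not overlap either. How many of all genes had groups without overlap was not counted, so this adds little with 3 libraries in each group. Slc3a2 was called by DESeq2 (adjusted p = 0.00146), without a filter on low counts (0.0214) and with the replicate block (0.0496). Deviations of same-numbered WT libraries correlated by as little as 0.0511 in this comparison, so its pairs and block rest on a weak link. In KO, 0% of 13799 genes were called, 333 had an unadjusted p under 0.05 and DESeq2 called 24. Slc3a2, the 1 member among the 333, had 410.0 to 481 CPM in KO vehicle (median 439) and 502 to 615 with CCM (median 530.4). Again the groups did not overlap and all 6 pairs were higher with CCM, by 0.28 (standard error 0.0806, edgeR adjusted p of 0.999927). Same-numbered KO libraries deviated together here as well. With the replicate block Slc3a2 was called (0.28, standard error 0.045, adjusted p = 0.00684), as it was by DESeq2 (0.0474) and without KO replicate 6 (0.30, adjusted p = 0.0220). Slc38a2 was higher with CCM in all 6 KO pairs as well, by 0.14 (standard error 0.277, edgeR adjusted p of 0.999927), and its groups overlapped. Without KO replicate 6 the value was 0.13 (standard error 0.0416, adjusted p = 0.182).

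Glul did not stand out with CCM alone. WT libraries had 249.6, 274 and 276 CPM with vehicle and 238, 278 and 259 with CCM, and the groups overlapped. The log2 fold change was -0.04 (95% interval -0.25 to 0.17) in WT and -0.08 (-0.25 to 0.09) in KO, where 186 to 241 CPM were measured with CCM. In both genotypes the upper bound lies well under the change seen with CCM in the presence of LPS in WT. In KO, Glul was lower with CCM in all 6 pairs, with log2 differences of -0.17 to -0.00485, and the groups overlapped.

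Under LPS, Glul was higher with CCM in WT macrophages, and 2 light chains were called slightly lower, calls that did not hold in all fits. Of the members, 3 were called between WT LPS+CCM and WT LPS, where 11.9% of 13579 genes were, 1 of them higher (4.15% of all genes) and 2 lower (7.78%). Glul had 57.8, 67.5 and 68.2 CPM with LPS and 101, 117 and 108 with LPS+CCM. All 3 libraries with CCM lay above all 3 without. The log2 fold change was 0.76 (95% interval 0.56 to 0.97, standard error 0.074, edgeR adjusted p = 0.000138), which is 1.70-fold, and Glul was called in every alternative tried for this comparison. LPS+CCM cells still had 40.8% of the Glul level of vehicle cells. Measured from the LPS level towards the vehicle level, the LPS+CCM level lay at 22.0% ± 2.57 of the way (SD, n = 3). Libraries were matched by replicate number for this value, a weak link between WT LPS and WT vehicle, as given in the section on processing.

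Whether CCM acts on Glul differently with LPS than without was tested in 1 fit over the 12 WT libraries. The interaction was 0.78 on the log2 scale (95% interval 0.53 to 1.04, standard error 0.111, edgeR adjusted p = 0.00332). Glul was the 1 member called, where 2.09% of 14747 genes were. With DESeq2 Slc7a8 was called too (edgeR -0.22, adjusted p = 0.115, DESeq2 adjusted p = 0.00404), and with all 36 libraries in 1 fit neither was. In that fit Glul had the same 0.78 with an adjusted p of 0.519. WT LPS libraries serve as the control of this contrast and as the treated group of the LPS contrast, so the 2 contrasts are not independent.

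The light chains gave small differences. Slc7a8 had 592, 583 and 612 CPM with LPS and 516, 497 and 533 with LPS+CCM in WT, with no overlap and a log2 fold change of -0.20 (standard error 0.0443, adjusted p = 0.0153). The call was lost without WT LPS replicate 3 (adjusted p = 0.0530) or WT LPS+CCM replicate 2 (0.0664), under total counts alone (-0.12, adjusted p = 0.0850) and with all 36 libraries in 1 fit (adjusted p = 1). Total counts alone called neither light chain lower and called Slc7a6 higher (0.24, adjusted p = 0.0358). Slc7a5 had 37.3, 32.5 and 37.0 CPM with LPS and 29.9, 29.4 and 30.3 with LPS+CCM, a log2 fold change of -0.24 (standard error 0.0703, adjusted p = 0.0493). That call, close to the threshold, was lost with DESeq2 (0.0771), under upper-quartile scaling (0.0610) and total counts alone (0.137), and without WT LPS replicate 1 or 3 or any 1 of the WT LPS+CCM libraries (0.0950 to 0.150). Slc7a7 differed by -0.21 (adjusted p = 0.0517), Slc7a6 by 0.16 (0.164), Slc3a2 by 0.10 (0.345) and Slc7a2 by -0.11 (0.364). Slc1a5 (0.09), Slc38a2 (-0.02) and Slc7a1 (-0.03) differed by less than 0.1. Libraries of 1 number deviated together in this comparison too, and under the replicate block 6 members were called, Slc7a2 (adjusted p = 0.00433), Slc7a7 (0.0137) and Slc3a2 (0.0117) in addition, among 23.7% of all genes. The heavy chain stood at 2.999 ± 0.161 times the summed light chains among the members with LPS+CCM, against 2.45 ± 0.175 with LPS. These groups did not overlap, and Slc7a11 is again left out of the sum.

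In KO macrophages the contrast of LPS+CCM with LPS is the one that chose Glul, and 0.112% of 13386 genes were called in it. Glul had 54.7 to 75.1 CPM with LPS (median 63.1) and 85.8 to 117 with LPS+CCM (median 105), with 6 of 6 pairs higher. The log2 fold change was 0.68 (standard error 0.109), the LPS+CCM level was 163% of the LPS level, and it lay at 23.6% ± 4.93 of the way back to vehicle (SD, n = 6). The member nearest to Glul among the higher ones was Slc3a2, with 1204 to 1325 CPM under LPS, 1292 to 1803 with LPS+CCM and a log2 fold change of 0.21 (standard error 0.11). Slc7a8 (-0.38), Slc7a5 (-0.34) and Slc7a7 (-0.30) had the lowest values. Slc7a8 and Slc7a7 were lower in 6 of 6 pairs, though Slc7a7 differed by only -0.00064 in replicate 4. The largest falls were in replicates 2 and 5, with -0.73 and -1.09 for Slc7a8 and -0.59 and -0.51 for Slc7a7. Deviations of same-numbered libraries correlated by as little as -0.10 in this contrast, so counts of pairs say little here. The way back to vehicle was also taken with libraries matched by number, so its SD rests on the same weak link. Without KO replicates 2, 5 and 6, a choice made after the length trend of these libraries was seen, Glul differed by 0.61 (standard error 0.133), Slc3a2 by 0.12, Slc7a8 by -0.13, Slc7a5 by -0.20 and Slc7a7 by -0.08. The values of all these genes, Glul included, were smaller in size in that fit than with all libraries.

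**Figure D4:**
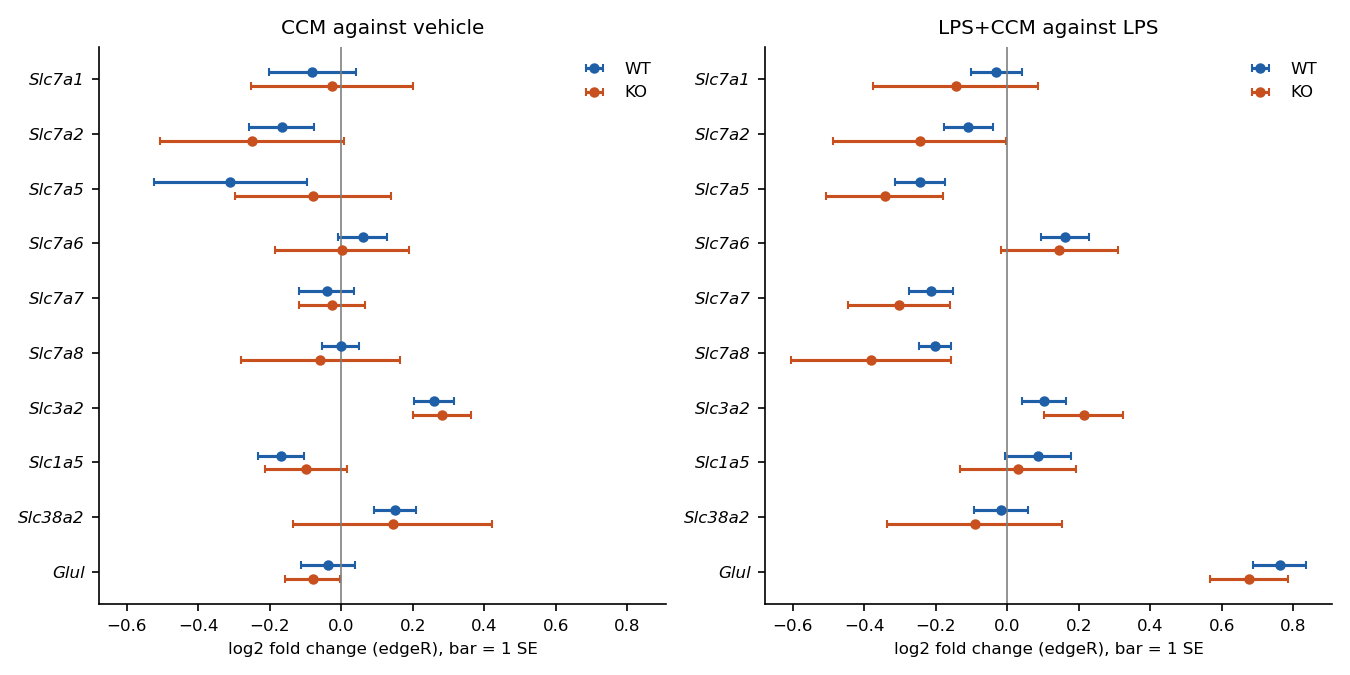
Log2 fold change of each member with CCM without LPS (left) and with LPS (right), in WT and KO, with bars of 1 standard error from edgeR. Glul lies near 0 without LPS (-0.04 and -0.08) and at 0.76 in WT and 0.68 in KO with LPS, the latter being the contrast by which it was chosen.

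Genes around the members in the same pathways gave a background for these values. The lists were drawn up with earlier results of these data known, and their counts are descriptions, to be read against the 63% of all genes called with LPS in WT and the 47.1% in KO. Of 22 other amino acid transporters tested, 7 were called higher and 11 lower with LPS in WT, with a list median of -0.28, and 6 and 8 of 22 in KO. Slc7a11, which exchanges cystine for glutamate and is another partner of Slc3a2, changed by 5.65 in WT and 5.31 in KO, from 28.8 ± 3.51 to 1419 ± 274 CPM in WT (SD, n = 3). It was also the 1 gene of the 4 lists called with CCM alone in WT (0.87, adjusted p = 0.0340). Slc1a2, a glutamate carrier, went from 0.0773 to 16.97 CPM in WT, and no fold is given since vehicle lies near 0. Slc43a2, a carrier of large neutral amino acids that works without a heavy chain, fell by 2.56 in WT and 2.67 in KO.

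Of 23 genes of glutamine and glutamate metabolism tested, 4 were called higher and 11 lower with LPS in WT and 2 and 9 in KO. Got1, a transaminase of aspartate, changed by -1.02 in WT, Asns, which uses glutamine to make asparagine, by 1.44 and Gclm, a subunit of the enzyme that starts glutathione synthesis, by 0.96. Of 21 genes of the ATF4 and amino acid response, 11 were called higher and 2 lower in WT and 7 and 2 in KO. Among these, Nupr1 rose by 3.20, Ppp1r15a by 1.83 and Mthfd2, an enzyme of mitochondrial folate metabolism, by 1.74 in WT. Of 8 genes of arginine use, 5 were called higher and 2 lower in WT and 3 and 1 in KO. Ass1, which regenerates arginine from citrulline, rose by 4.45 and Arg2, an arginase, by 0.90 in WT. Nos2, the inducible nitric oxide synthase, had 0.0457 CPM in WT vehicle and 379 ± 27.1 with LPS, a level from which no fold is given since vehicle lies near 0.

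With CCM under LPS in WT, where 11.9% of all genes were called, the counts of the lists were 4 of 19, 2 of 23, 3 of 21 and 3 of 8 in the order above. Among other transporters 2 of 19 were higher and 2 lower. Slc43a2 was one of the higher genes (0.83, adjusted p = 0.00236), with 459.9 CPM in vehicle, 76.9 with LPS and 135.9 with LPS+CCM, so that its means had the same order as those of Glul. Slc36a1, a lysosomal carrier, was the other (0.30, adjusted p = 0.00775), and Slc1a2 was lower (-0.54, adjusted p = 0.0220), as was Slc6a19 (-1.27, adjusted p = 0.0458), named after its values were seen. In glutamine and glutamate metabolism 1 of 23 was higher and 1 lower, Cad, which starts pyrimidine synthesis from glutamine, being the higher one (0.34, adjusted p = 0.0313) and Gfpt2, likewise named afterwards, the lower one (-0.97, adjusted p = 0.0408). In the ATF4 list 2 of 21 were higher, Atf5 (0.31) and Eif4ebp1 (0.27), and 1 lower, Ddit4 (-0.62). In arginine use Odc1, the entry enzyme of polyamine synthesis, was higher (0.46, adjusted p = 0.0359), and Nos2 (-0.93, adjusted p = 1.42e-05) and Sat1, which breaks polyamines down, were lower (-0.38, adjusted p = 0.000432).

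The genes whose levels most resembled those of Glul over the 36 libraries, by Pearson's r of log2 CPM among 11487 genes, were Snx24 (0.982), Gtf2i (0.976), C2cd2l (0.975), Lta4h (0.974) and Rnf128 (0.974). For Slc7a2 they were Irak3 (0.997), Parp14 (0.997), Icam1 (0.997), Plek (0.996) and Lcp2 (0.996). The libraries fall into those with and without LPS, so that these coefficients mostly carry the step between them and are given as a description.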

How the data were processed

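RNA-seq of 36 libraries was used. RNA was selected with poly(T) beads. Per the submitters' processing notes, the authors used fastp, HISAT2 2.0.5 and featureCounts 1.5.0-p3 with mm10, and the deposited values are these raw counts. The strand setting is not given in the sources used here, so counts of genes that overlap others are uncertain. All count columns were mapped to samples (0 were left out). Only raw counts were tested.

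Fits held only the groups compared and used edgeR 4.0.16 in R 4.3.3 (filterByExpr, TMM, glmQLFit, glmQLFTest, no block, Benjamini-Hochberg adjustment at 0.05, all tests two-sided). Intervals are 95% intervals of the log2 fold change. Adjustment ran over all genes tested. Overlap between groups and directions of pairs are described for the members alone, and how often all genes show the same was not counted. The members and lists were chosen with earlier results of these data known. The text names all 10 members, Arntl, up to 3 called genes per list and comparison with the largest change (average log2 CPM no lower than 1), and the 5 genes most like Glul and Slc7a2.

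Same-numbered libraries were taken to deviate together where their deviations from their group means correlated by over 0.1 in every pair. This held for KO LPS against vehicle (0.298 to 0.83), KO CCM against vehicle (0.337 to 0.844) and WT LPS+CCM against LPS (0.151 to 0.36). It failed for WT LPS against vehicle (lowest 0.0469), WT CCM against vehicle (lowest 0.0511) and KO LPS+CCM against LPS (lowest -0.10). The main fits had no block even where it held, and the block was also run where it failed. The sources do not say that a number marks 1 animal. Alternatives were DESeq2 1.42.0, RLE factors, total counts alone, upper-quartile scaling, no filter beyond 1 count, all libraries in 1 fit, the replicate block and leaving out libraries. The fit without KO replicates 2, 5 and 6 was chosen after seeing the data. Libraries of a group differed by more than sampling noise (the lowest chi-square divided by its degrees of freedom was 4.34), so replicate spread rather than depth limits precision. The fits were tested on simulated data. Promoters are RefSeq sequences of GRCm38.p6.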

Additional observations from a re-analysis of the deposited data

Results flagged for a closer look

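In 14 of the 40 KO groups of 6 libraries (10 members under 4 treatments) 1 library lay far from the others by Dixon's ratio, at a bar that chance passes in about 1 group in 20. All 14 were the lowest library, and all were KO replicate 6. The 10 members are read in the same libraries, so the 14 are not independent. How many of all genes pass this bar was not counted, so the 14 are no result about the members. Slc38a2 stood out in each treatment, with 43.9 CPM in vehicle and 49.8 with CCM, and under LPS 34.9 without and 38.8 with CCM. Slc7a6 stood out with 13.9 CPM in vehicle, 13.9 with CCM and 15.5 with LPS+CCM. For Slc7a2 the values were 13 CPM with CCM and 883 with LPS, for Slc7a8 133 with CCM and 334 with LPS, and for Slc7a7 25.2 in vehicle and 25.5 with CCM. Glul stood out with CCM alone, at 186 CPM. The 4 libraries share a replicate number and the length trend given above, and the part of that trend in these values was not tested.

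The response of Glul to CCM differed with and without LPS in WT, by 0.78 on the log2 scale, which the interaction term of the edgeR fit tested (adjusted p = 0.00332).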

How the results depend on the processing

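Of 1440 values of members under the alternatives, 1404 stayed on the same side of the threshold, 16 lost a call, 19 gained one, and the 1 that reversed while called was Slc7a7 with LPS in WT under total counts alone, -0.36. With CCM alone, 1 member in place of 0 was called in WT by DESeq2, with no filter and with the replicate block, and 1 in KO by DESeq2, with the block and without KO replicate 6. For WT LPS+CCM against LPS, 1 member was called with all 36 libraries in 1 fit and 6 with the replicate block. Leaving out 1 library gave 1 to 3, the 1 arising without WT LPS replicate 3 or WT LPS+CCM replicate 2. The interaction in WT called 2 members by DESeq2 and 0 with all libraries in 1 fit. Leaving out 1 library gave 8 members for LPS in WT, 7 to 8 in KO, and 0 for CCM alone in KO. The call of Glul that chose it was not made in 9 of the 12 fits that left out 1 library of that contrast and in 2 of the 8 other settings. Its log2 fold change there ranged from 0.61 to 0.73. The replicate block changed no call of a member beyond those given. Calls over all genes moved by over 1.5 times in several fits. For LPS they were 5644 in WT with all libraries in 1 fit and 9774 in KO with the block. For CCM alone they were 247 (DESeq2), 377 (no filter) and 255 (block) in WT, and 24, 429 (block) and 141 (without KO replicate 6) in KO. For CCM under LPS in WT they were 17 with all libraries in 1 fit and 3220 with the block, and in KO 180 (DESeq2), 285 (1 fit) and 777 (block). The interaction gave 696 (DESeq2), 721 (no filter), 548 (block) and 0 (1 fit). Leaving out 1 library gave 0 to 16 genes for CCM alone in WT, 893 to 1352 for CCM under LPS in WT, 3 to 37 in KO (170 without both libraries of replicate 6) and 149 to 295 for the interaction. The lowest counts came without WT LPS+CCM replicate 2, KO LPS+CCM replicate 2 and WT LPS+CCM replicate 3 in the last 3 of these. The cause was not tested. No paired analysis was possible for KO against WT because the genotypes are different mice.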

Other observations

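In KO without replicate 6, Slc3a2 per kb was set against the summed light chains among the members, with Slc7a11 left out. It stood at 1.40 ± 0.109 times their sum in vehicle and 1.78 ± 0.148 times with CCM (SD, n = 5). With LPS it was 2.37 ± 0.0566 and with LPS+CCM 4.02 ± 1.87 (SD, n = 5). With replicate 6 included these ratios were 1.61 ± 0.508 in vehicle and 2.05 ± 0.689 with CCM alone, and under LPS 2.71 ± 0.830 without and 4.25 ± 1.77 with CCM (SD, n = 6). In WT the same ratio with CCM alone was 1.84 ± 0.0626 (SD, n = 3).

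The glutamine carriers Slc1a5 and Slc38a2 summed to 28.2 CPM per kb in WT vehicle and 16.3 with LPS, and to 16.5 with LPS+CCM, while Glul went from 80.3 to 19.4 and 32.8 CPM per kb. The interaction of LPS and CCM in WT was called for Slc7a11 (-0.83, edgeR adjusted p = 0.0335) and Sat1 (-0.57, adjusted p = 0.00778) among the genes of the 4 lists.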
